A study of Rattus norvegicus with 12 samples.

Results

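The 9 transcripts described here encode G protein coupled receptors for vasoactive agents: Agtr1a, Ednra, Ednrb, Adra1b, Adra1d, Avpr1a, Htr2a, F2r and Bdkrb2. They were chosen by symbol from the 33294 genes of the count table, and 7 of them were among the 18438 genes with enough counts to be tested. RNA was sequenced from PAC1 cells, a smooth muscle cell line from rat pulmonary artery, after knockdown of 1 of 3 RNA-binding proteins that regulate splicing. The 4 groups of 3 libraries each (12 in all) received 90 pmol of siRNA by reverse transfection, were transfected again at 24 h and were harvested 48 h later, as the labels give it; the study describes longer intervals. The control group received the negative control siRNA C2, and the others received an siRNA against RBPMS (RBPMS-KD), RBFOX2 (RBFOX2-KD) or QKI (QKI-KD, written QK in the study). All 4 groups therefore share the transfection itself, each protein was targeted with 1 siRNA, and all values come from 1 cell line, whose cells in this experiment the study describes as less differentiated than in its other one.

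Receptors of this kind carry signals from hormones, transmitters and proteases to the contractile machinery of the vessel wall. Agonist binding activates G proteins of the Gq family, phospholipase C then generates inositol trisphosphate, and the calcium it releases from the store raises myosin light chain phosphorylation. Vascular smooth muscle is the classical site of angiotensin, endothelin A, alpha-1 adrenergic, vasopressin and serotonin 2A receptors, while the endothelin B receptor is best known from endothelium, where it promotes vasodilation.

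The 4 siRNAs define the groups, and their sense strands were as follows, 5′ to 3′, from the study's reagent list.
C2 (control): aagguccggcucccccaaaug
RBPMS: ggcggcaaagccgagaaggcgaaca
RBFOX2: gcaaugguucagccuuuua
QKI: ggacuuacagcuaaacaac

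Promoter windows of F2r and Ednrb are shown because F2r had the largest decrease of the tested receptors and Ednrb the largest increase. Each holds the 250 bases before the gene's start in RefSeq (build GRCr8), written in the direction of transcription, with matches to the searched motifs in capitals.
F2r, chr2:28620580-28620829, minus strand: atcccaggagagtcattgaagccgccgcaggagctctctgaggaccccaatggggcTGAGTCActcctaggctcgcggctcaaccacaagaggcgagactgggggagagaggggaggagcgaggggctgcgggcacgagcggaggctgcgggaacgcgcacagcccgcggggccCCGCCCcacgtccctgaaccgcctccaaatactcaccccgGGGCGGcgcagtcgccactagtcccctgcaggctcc
Ednrb, chr15:87086766-87087015, minus strand: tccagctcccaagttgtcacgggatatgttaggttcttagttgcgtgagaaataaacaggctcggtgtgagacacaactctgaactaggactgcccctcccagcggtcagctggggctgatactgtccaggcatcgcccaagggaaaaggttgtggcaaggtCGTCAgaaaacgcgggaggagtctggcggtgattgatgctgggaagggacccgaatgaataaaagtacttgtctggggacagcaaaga

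Windows of this length were found for 7 of the 9 receptors, and not for Htr2a and Bdkrb2. Both strands were searched for the GC box, written GGGCGG. The search also took the start element TATAAA, which TATA-binding protein recognises. An AP-1 motif was read as TGANTCA. The first letters of a cAMP response element were read as TGACG. The CArG box, the element bound by serum response factor, was searched for as well. The F2r window held 2 GC boxes, 1 of them on the opposite strand, and 1 AP-1 motif, with a GC content of 69.6%. The Ednrb window held 1 TGACG on the opposite strand and had a GC content of 53.2%. No match overlapped another. Over 33469 RefSeq windows, 30.5% held a GC box, 12.9% TATAAA, 6.34% an AP-1 motif, 18.2% a TGACG and 1.5% a CArG box, and the median GC content was 51.2%. The matches are descriptions of the letters only. None of the 7 windows matched the CArG box. Those of Agtr1a, Ednra and Adra1b do not end at the outer edge of the gene, so they may hold transcribed bases.

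Library totals ranged from 110595399 to 151665474 counts. Each targeted transcript was lowest in its own knockdown: mean Rbpms went from 40.7 to 7.21 CPM, Rbfox2 from 154 to 37.3 CPM and Qk from 233 to 26.6 CPM. CPM here are counts scaled to a common library total after TMM normalisation, so they compare 1 gene between libraries but not different genes, whose lengths differ. The summed level of 8 smooth muscle markers was 2110 to 2175 CPM in control, 1069 to 1176 CPM in RBPMS-KD, 827 to 925 CPM in RBFOX2-KD and 1441 to 1526 CPM in QKI-KD, and all 8 were detected. Acta2, Tagln and Myl9 carried that sum, and 2 of the 8 were higher than control by the edgeR adjusted p in each knockdown: Myh11 rose in RBFOX2-KD (6.48 to 13.4 CPM, log2 fold change 1.05), and Myocd was higher in QKI-KD (22.1 to 38.1 CPM, log2 fold change 0.78). Leukocyte markers (4 genes) summed to 1.38 to 1.75 CPM in control and were highest in QKI-KD, at 2.43 to 2.92 CPM. Cd68 made up most of that sum, with means of 1.04 CPM in control and 1.98 CPM in QKI-KD. Lyz2 instead rose in RBFOX2-KD (0.0634 to 0.181 CPM, log2 fold change 1.52) and was at 0.0623 CPM in QKI-KD. The sum of 4 epithelial markers, nearly all Krt8, was highest in RBFOX2-KD, at 72.0 to 73.9 CPM against 29.5 to 31.7 CPM in control, while Epcam (0.0588 to 0.368 CPM) and Cdh1 (0.0815 to 0.391 CPM) rose in QKI-KD. The sum of 3 neuronal markers ran from 2.31 to 4.81 CPM over all libraries and was highest in control. Its members differed: in QKI-KD mean Syt1 went from 2.64 to 0.431 CPM and Tubb3 from 1.88 to 2.64 CPM, while Snap25 stayed at or near 0. The part of these shifts in the receptor values was not tested. The study calls its samples biological replicates, but the labels do not say whether libraries came from separate cultures, so p-values measure the spread between these libraries. RBPMS-KD library 2 stood apart from its group: a chi-square of counts over genes gave 57.8 and 45.6 per degree of freedom against libraries 1 and 3, where the other pairs within groups ran from 4.64 to 21.5. Without it 2 receptors still changed in RBPMS-KD, Ednra by -1.18 and Ednrb by 2.37 on the log2 scale, beside 1749 changed genes in place of 1781. In bulk RNA, fewer cells with a transcript and less transcript per cell cannot be told apart. Of counts from 1 to 19, 68.1% were even, against 50.9% of counts above 1000, so 1 count need not be 1 RNA fragment.

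F2r and Ednra were lowest in QKI-KD, Ednrb was highest in RBPMS-KD, and Bdkrb2 was above control in every knockdown. A gene was called changed where the Benjamini-Hochberg adjusted p of edgeR's quasi-likelihood test was under 0.05 and the log2 fold change was beyond 1 in size, the thresholds of the study. In RBPMS-KD, 1 of the 7 tested receptors rose (Ednrb) and 1 fell (Ednra); 9.66% of all tested genes changed, 5.16% upward and 4.5% downward. In RBFOX2-KD, 1 rose (Ednrb), where 11.7% of all genes changed (6.96% upward and 4.73% downward). In QKI-KD, 1 rose (Bdkrb2) and 3 fell (F2r, Ednra and Agtr1a), where 17.5% of all genes changed (8.28% upward and 9.24% downward). By the adjusted p alone, 4, 5 and 7 of the 7 receptors passed in RBPMS-KD, RBFOX2-KD and QKI-KD, beside 59.4%, 60.3% and 66.9% of all genes, so at this depth passing the test without a size limit was common. The 3 knockdown libraries lay wholly above or below the 3 control libraries for 5, 5 and 7 of the 7 receptors in that order, beside 61.7%, 68.6% and 72.3% of all genes. The median size of the log2 fold change over the 7 receptors was 0.70, 0.43 and 1.61 in the same order, beside 0.33, 0.33 and 0.42 over all genes. The signed medians were -0.08, 0.13 and -0.61, since the receptors did not move in one direction. The receptors were chosen with earlier results of these data known, and the part of that choice in these medians was not tested.

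**Figure D1:**
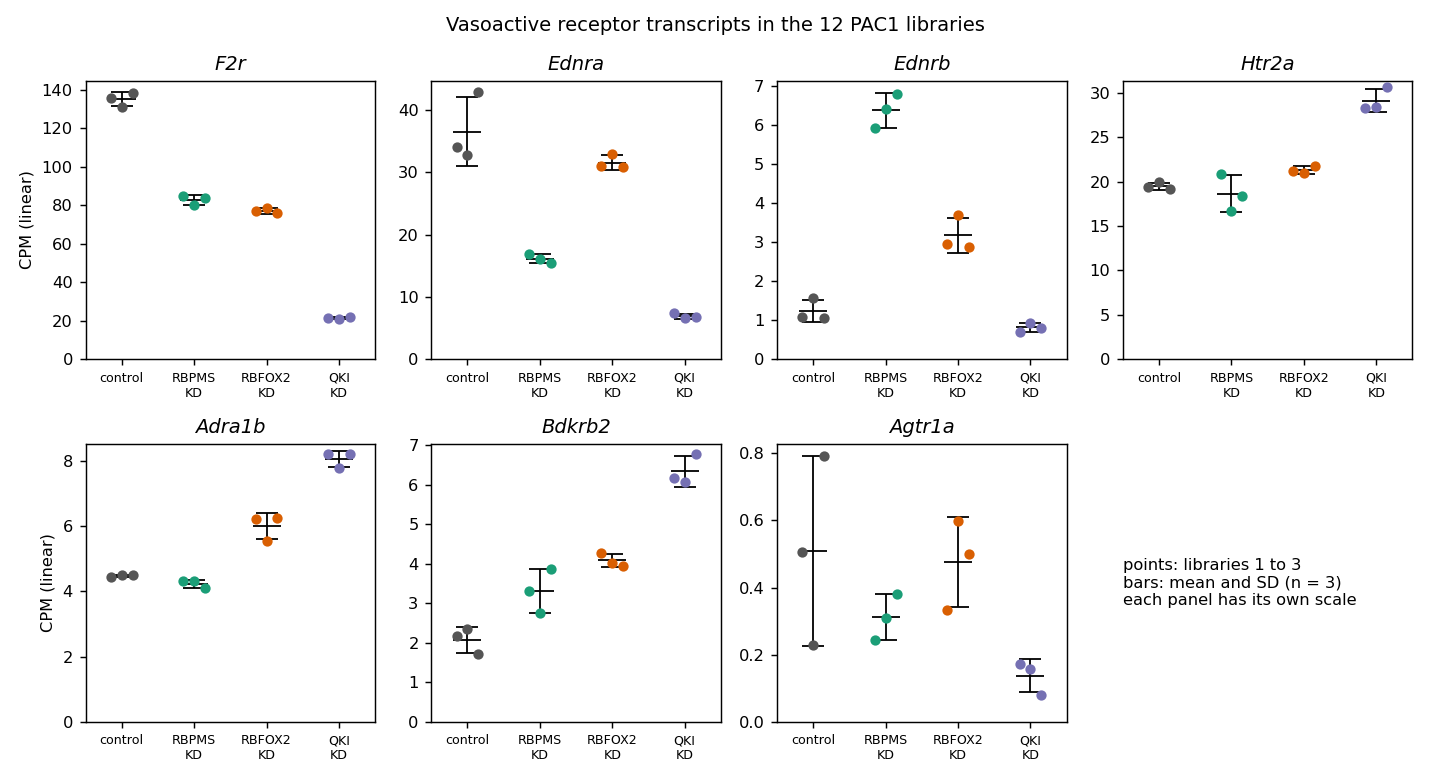
Level of each of the 7 tested receptors in every library, in CPM on an axis of its own for each gene, with points for the 3 libraries of each group and bars for the mean and SD (n = 3). F2r steps down from 131 to 138 CPM in control to 21.0 to 21.9 CPM in QKI-KD, while Bdkrb2 steps up from 1.72 to 2.36 CPM to 6.06 to 6.78 CPM.

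F2r encodes PAR1, the receptor that thrombin activates by cleaving its extracellular end. Its level was 136, 131 and 138 CPM in the control libraries, 84.8, 79.9 and 83.7 CPM in RBPMS-KD, 76.7, 78.4 and 75.7 CPM in RBFOX2-KD, and 21.1, 21.0 and 21.9 CPM in QKI-KD. The 4 groups did not overlap, and control was highest and QKI-KD lowest by a wide margin. Against control the log2 fold change was -0.70 (SE 0.035) in RBPMS-KD and -0.81 (SE 0.035) in RBFOX2-KD, with edgeR adjusted p of 2.76e-11 and 3.11e-12, both short of the size limit. In QKI-KD F2r fell by 2.66 on the log2 scale (SE 0.038), a level 6.32-fold lower than control (edgeR adjusted p = 1.44e-18). F2r held 67.7% ± 1.25 (SD, n = 3) of the summed CPM of the 9 receptors in control and 29.3% ± 0.222 in QKI-KD. That sum was 199 ± 8.15 CPM in control, 132 ± 4.90 CPM in RBPMS-KD, 144 ± 2.24 CPM in RBFOX2-KD and 72.7 ± 2.10 CPM in QKI-KD. A longer transcript weighs more in it.

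The endothelin receptors separated the 3 knockdowns. Ednra encodes the endothelin A receptor, which mediates vasoconstriction. Its level was 34.0, 32.7 and 42.9 CPM in control, 16.9, 16.1 and 15.4 CPM in RBPMS-KD, 31.0, 32.9 and 30.9 CPM in RBFOX2-KD, and 7.37, 6.63 and 6.68 CPM in QKI-KD. RBFOX2-KD overlapped control, RBPMS-KD lay below both, and QKI-KD lay below RBPMS-KD. Ednra fell by 1.18 on the log2 scale in RBPMS-KD (SE 0.080, edgeR adjusted p = 1.17e-09) and fell by 2.40 in QKI-KD (SE 0.086, edgeR adjusted p = 1.01e-13), or 2.26-fold and 5.29-fold. In RBFOX2-KD the log2 fold change was -0.21 with an edgeR adjusted p of 0.0260, which was lost without control library 3, at -0.08 (edgeR adjusted p = 0.231), without RBFOX2-KD library 1 or 3, and with library totals, at -0.16 (edgeR adjusted p = 0.0867).

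Ednrb, which encodes the endothelin B receptor, moved the other way in 2 of the knockdowns. Its level was 1.08, 1.56 and 1.04 CPM in control, 5.92, 6.42 and 6.81 CPM in RBPMS-KD, 2.96, 3.69 and 2.86 CPM in RBFOX2-KD, and 0.700, 0.922 and 0.807 CPM in QKI-KD. No group overlapped another, and every library of RBPMS-KD exceeded every library of the rest. Ednrb rose by 2.37 on the log2 scale in RBPMS-KD (SE 0.14, edgeR adjusted p = 2.77e-10) and by 1.36 in RBFOX2-KD (SE 0.15, edgeR adjusted p = 3.42e-07), or 5.17-fold and 2.57-fold. In QKI-KD the log2 fold change was -0.61 (SE 0.17, edgeR adjusted p = 0.00401), short of the size limit. Endothelial markers (5 genes) summed to 8.73 to 10.8 CPM in control, 8.84 to 9.12 CPM in RBPMS-KD, 5.18 to 5.76 CPM in RBFOX2-KD and 6.46 to 6.75 CPM in QKI-KD. By group mean Cdh5 was the largest part of the sum in each group. Their members moved differently: Pecam1 rose in RBPMS-KD (0.0923 to 0.302 CPM, log2 fold change 1.70) and in QKI-KD (1.27). Tek was higher in RBPMS-KD (1.32 to 2.00 CPM, log2 fold change 0.59) and in QKI-KD (2.09 CPM). Cdh5 fell in RBFOX2-KD and QKI-KD, and Kdr stayed at or near 0. Whether the shifts of these markers bear on the Ednrb values was not tested.

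The balance of the endothelin receptor transcripts, taken as the log2 ratio of Ednra to Ednrb counts within each library, was 4.98, 4.39 and 5.36 in control. It was 1.51, 1.33 and 1.18 in RBPMS-KD, 3.38, 3.16 and 3.43 in RBFOX2-KD, and 3.40, 2.85 and 3.05 in QKI-KD. RBFOX2-KD and QKI-KD overlapped each other, below every control library and above every RBPMS-KD library. The mean ratio lay 11.9-fold below control in RBPMS-KD, 3.00-fold in RBFOX2-KD and 3.52-fold in QKI-KD. The similar ratios of RBFOX2-KD and QKI-KD came with different transcripts, since Ednrb rose in RBFOX2-KD and Ednra fell in QKI-KD. The ratio is a description, and 3 libraries against 3 cannot give an exact permutation p below 0.1. Lengths of the transcripts enter its absolute size. They cancel in its difference between groups only where they are the same in each group, which was not examined.

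**Figure D2:**
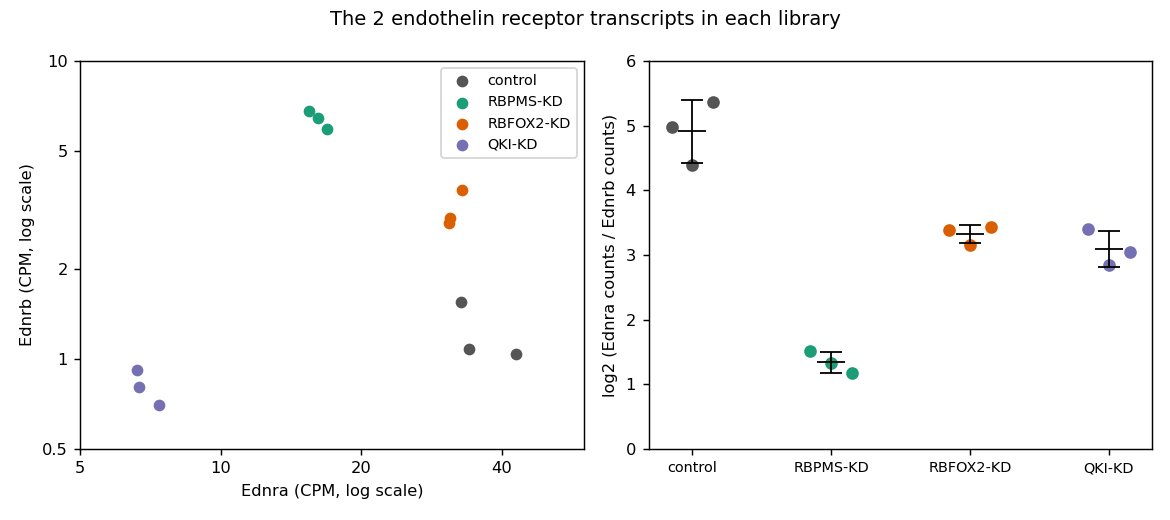
Left, Ednra against Ednrb in each of the 12 libraries, both in CPM on log axes. Right, log2 ratio of Ednra to Ednrb counts per library, with the group mean and SD (n = 3). In the left panel the RBPMS-KD libraries stand alone at the top, and the QKI-KD libraries lie furthest to the left. In the right panel RBPMS-KD has ratios of 1.18 to 1.51, below the control libraries at 4.39 to 5.36.

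Htr2a, Adra1b and Bdkrb2 were higher in QKI-KD than in any other group. Htr2a encodes the serotonin 2A receptor, which constricts vessels in response to serotonin. Its level was 19.3, 19.9 and 19.1 CPM in control, 20.8, 16.7 and 18.4 CPM in RBPMS-KD, 21.1, 20.9 and 21.8 CPM in RBFOX2-KD, and 28.3, 28.4 and 30.6 CPM in QKI-KD. QKI-KD lay well above all other libraries, RBFOX2-KD lay narrowly above control and RBPMS-KD, and the latter groups overlapped. The QKI-KD log2 fold change was 0.58 (SE 0.061, edgeR adjusted p = 2.03e-07). For RBPMS-KD the 95% interval of the log2 fold change was -0.20 to 0.07, and for RBFOX2-KD it was -0.002 to 0.26, so the fit leaves room for small shifts in both; without RBPMS-KD library 1 the RBPMS-KD value was -0.15 and passed (edgeR adjusted p = 0.0258). The RBFOX2-KD value of 0.13 did not pass (edgeR adjusted p = 0.0833) but did in 3 of the alternative fits.

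Adra1b encodes the alpha-1B adrenergic receptor for noradrenaline. Its level was 4.44, 4.51 and 4.49 CPM in control, 4.30, 4.32 and 4.09 CPM in RBPMS-KD, 6.23, 5.56 and 6.27 CPM in RBFOX2-KD, and 8.23, 7.79 and 8.20 CPM in QKI-KD. Control and RBPMS-KD lay close together, RBFOX2-KD above them and QKI-KD above all. The log2 fold change was 0.43 (SE 0.067, edgeR adjusted p = 2.90e-05) in RBFOX2-KD and 0.85 (SE 0.066, edgeR adjusted p = 3.73e-09) in QKI-KD, both short of the size limit. In RBPMS-KD it was -0.08, with a 95% interval of -0.23 to 0.07, and it was 0.0069 on the authors' filtered and quantile-normalised table.

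Bdkrb2 encodes the bradykinin B2 receptor, the constitutive receptor of the kinin system. Its level was 2.16, 2.36 and 1.72 CPM in control, 3.32, 2.76 and 3.88 CPM in RBPMS-KD, 4.28, 4.02 and 3.94 CPM in RBFOX2-KD, and 6.16, 6.06 and 6.78 CPM in QKI-KD. Every knockdown library lay above every control library, and the groups were ordered RBPMS-KD, RBFOX2-KD and QKI-KD without overlap. Bdkrb2 rose by 1.61 on the log2 scale in QKI-KD (SE 0.12, edgeR adjusted p = 2.22e-09), or 3.04-fold. The log2 fold change was 0.67 (SE 0.12, edgeR adjusted p = 1.82e-04) in RBPMS-KD and 0.97 (SE 0.12, edgeR adjusted p = 2.31e-06) in RBFOX2-KD. The latter lies at the size limit: it passed with library totals in place of TMM scaling and without control library 2.

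Agtr1a, the type 1 angiotensin II receptor, was read from few counts. The control libraries held 62, 34 and 108 counts, RBPMS-KD 26, 42 and 42, RBFOX2-KD 46, 84 and 68, and QKI-KD 24, 18 and 10. In CPM these were 0.506, 0.228 and 0.793 in control, 0.244, 0.310 and 0.382 in RBPMS-KD, 0.333, 0.598 and 0.4995 in RBFOX2-KD, and 0.173, 0.157 and 0.0807 in QKI-KD. The first 3 groups overlapped, and only QKI-KD lay below all control libraries. Agtr1a fell by 1.88 on the log2 scale in QKI-KD (SE 0.42, edgeR adjusted p = 7.96e-04), or 3.67-fold. On the authors' quantile-normalised table with a pseudocount of 20, which shrinks low genes, the value was -1.09. In RBPMS-KD the log2 fold change was -0.70 with a 95% interval of -1.50 to 0.11 (edgeR adjusted p = 0.129); without control library 2 it was -1.06 and passed (edgeR adjusted p = 0.0122). In RBFOX2-KD it was -0.09, with an interval of -0.85 to 0.67. The rat has a close paralogue, Agtr1b, with 0 to 2 counts per library, and how reads matching both genes were counted was not given.

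Adra1d and Avpr1a, which encode the alpha-1D adrenergic and V1a vasopressin receptors, were not tested because of their counts. Adra1d had 0, 4 and 0 counts in control, 0, 2 and 1 in RBPMS-KD, 2, 0 and 0 in RBFOX2-KD, and 2, 4 and 4 in QKI-KD. Avpr1a had 2, 0 and 0 counts in control, 4, 4 and 0 in QKI-KD, and 0 in all libraries of RBPMS-KD and RBFOX2-KD. A count of 0 still allows up to 3 counts in a library if each count is 1 RNA fragment, which the many even counts leave uncertain. This limit covers counting error only. Differences between groups were therefore not assessed for either receptor.

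**Figure D3:**
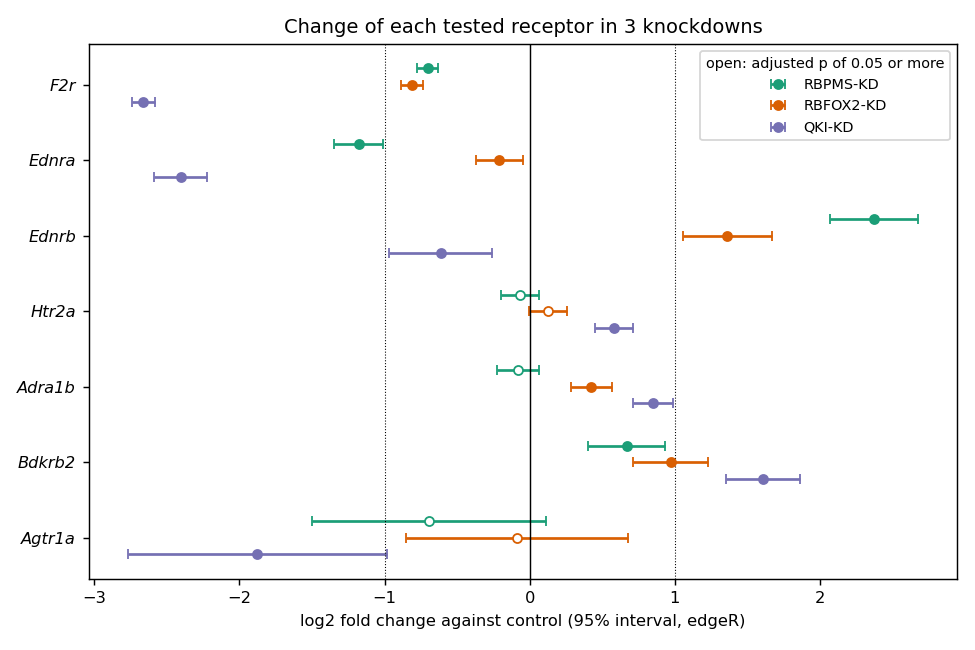
Log2 fold change of the 7 tested receptors against control in each knockdown, with 95% intervals from the edgeR fit; open points have an adjusted p of 0.05 or more and dotted lines mark the size limit. F2r, Ednra and Agtr1a lie furthest to the left in QKI-KD, Ednrb lies furthest to the right in RBPMS-KD, and Agtr1a has the widest intervals.

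Direct comparisons between knockdowns tested whether the receptor responses differed. By the adjusted p alone 6 of the 7 receptors differed between RBFOX2-KD and RBPMS-KD, 7 between QKI-KD and RBPMS-KD and 7 between QKI-KD and RBFOX2-KD, beside 56.7%, 61% and 68.5% of all genes. Between RBFOX2-KD and RBPMS-KD 1 of the 7 receptors changed, beside 7.52% of all genes (3.1% downward): Ednrb was lower in RBFOX2-KD by a log2 difference of -1.01 (SE 0.13, edgeR adjusted p = 4.46e-06). That difference was at the size limit and came under it without RBPMS-KD library 3 (-0.96) and without RBFOX2-KD library 1 (-0.96) or 3 (-0.94). It also came under it with library totals (-0.91) and with only genes averaging at least 200 counts (-0.98). Ednra was higher in RBFOX2-KD by 0.97 (SE 0.080, edgeR adjusted p = 2.13e-08) and Adra1b by 0.51 (SE 0.068, edgeR adjusted p = 6.40e-06). Among the alternatives the Ednra difference reached 1.07, above the size limit. Htr2a was higher in RBFOX2-KD by 0.19 (edgeR adjusted p = 0.0139), a difference lost without RBPMS-KD library 2 or RBFOX2-KD library 3. F2r differed between these knockdowns by only -0.11 (edgeR adjusted p = 0.0169), and that difference was lost under library totals, at -0.0079. Bdkrb2 differed by 0.30 (edgeR adjusted p = 0.0375), which was also lost in several alternatives, the replicate block among them (edgeR adjusted p = 0.0506).

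QKI-KD differed from RBPMS-KD in 4 of the 7 receptors and from RBFOX2-KD in 4, beside 12.2% and 18.4% of all genes (6.53% and 10.6% downward), and all 4 were lower in QKI-KD each time: F2r, Ednra, Ednrb and Agtr1a. F2r was lower in QKI-KD than in RBPMS-KD by a log2 difference of -1.96 (SE 0.038) and than in RBFOX2-KD by -1.85 (SE 0.038), with edgeR adjusted p of 8.98e-17 and 1.24e-16. For Ednra the differences were -1.23 and -2.19, and for Ednrb -2.98 and -1.98, the largest edgeR adjusted p of these being 4.53e-09. Agtr1a differed by -1.18 from RBPMS-KD (edgeR adjusted p = 0.0297), which was lost without RBPMS-KD library 3 and without QKI-KD library 2 or 3, and by -1.79 from RBFOX2-KD (edgeR adjusted p = 0.00118). On the quantile-normalised table with a pseudocount of 20 these differences were -0.70 and -0.99, both under the size limit. Htr2a, Adra1b and Bdkrb2 were higher in QKI-KD than in both other knockdowns, by 0.42 to 0.94 on the log2 scale.

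Other receptors for vasoactive agents were listed for comparison, 40 in all, of which 25 were tested. In RBPMS-KD 1 of these rose and 2 fell, in RBFOX2-KD 1 fell, and in QKI-KD 5 rose and 4 fell, beside the 9.66%, 11.7% and 17.5% of all tested genes that changed in these comparisons. The serotonin 1B receptor gene Htr1b, also linked to vasoconstriction, was at 63.7, 63.9 and 66.4 CPM in control and at 16.02, 19.1 and 16.4 CPM in QKI-KD. It fell by 1.92 on the log2 scale in RBFOX2-KD and in QKI-KD (larger edgeR adjusted p = 1.51e-13), and its value in RBPMS-KD was -0.97, whereas Htr2a was higher in QKI-KD. Bdkrb1, the inducible kinin receptor, had 0.849, 1.08 and 0.705 CPM in control and 3.08, 3.05 and 3.08 CPM in QKI-KD, and rose by 1.34 in RBPMS-KD and 1.80 in QKI-KD (larger edgeR adjusted p = 4.00e-07). In RBFOX2-KD its log2 fold change was 0.78, so that both bradykinin receptor transcripts were above control in all 3 knockdowns. The adrenomedullin and CGRP receptor gene Calcrl fell by 1.07 in RBPMS-KD and 1.56 in QKI-KD and was at -0.80 in RBFOX2-KD. Without control library 3 the RBPMS-KD value was -0.97, under the size limit. It was -0.99 on the quantile-normalised table with a pseudocount of 20. The ADP receptor gene P2ry1 fell by 1.53 in QKI-KD and was at -0.67 and -0.46 in RBPMS-KD and RBFOX2-KD.

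Of 17 genes for ligands and the peptidases that make or degrade them, 11 were tested; 1 fell in RBPMS-KD, and in QKI-KD 3 rose and 1 fell, beside 9.66% and 17.5% of all genes. In RBFOX2-KD (11.7% of all genes) 0 changed by the edgeR call, against 3 at an unadjusted p under 0.05 and 1 changed in DESeq2. By the edgeR adjusted p alone 3 were lower there, all short of the size limit, beside 60.3% of all genes. Mme encodes neprilysin, a peptidase that degrades bradykinin, endothelin and natriuretic peptides. It was at 112, 121 and 124 CPM in control, 54.5, 48.6 and 56.7 CPM in RBPMS-KD, 60.5, 59.3 and 59.3 CPM in RBFOX2-KD, and 18.1, 17.4 and 17.4 CPM in QKI-KD. Mme fell by 1.16 in RBPMS-KD (edgeR adjusted p = 4.54e-12) and fell by 2.76 in QKI-KD (edgeR adjusted p = 7.26e-17), and its RBFOX2-KD value of -0.996 was short of the limit. Edn1, which encodes the ligand endothelin 1, was at 3.90, 4.02 and 3.58 CPM in control and at 9.18, 8.93 and 9.91 CPM in QKI-KD. It rose by 1.28 there (SE 0.073, edgeR adjusted p = 5.00e-11), in the group where both endothelin receptor transcripts were lowest, and stood at 0.20 and -0.01 in RBPMS-KD and RBFOX2-KD.

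All 24 listed transducers, from G protein alpha subunits to calcium channels, were tested. In RBPMS-KD 0 changed by the edgeR call or in DESeq2, against 16 at an unadjusted p under 0.05 in edgeR. By the edgeR adjusted p alone 4 were higher and 11 lower there, all short of the size limit, beside 59.4% of all genes. In RBFOX2-KD 1 rose and 2 fell, and in QKI-KD 1 rose and 7 fell. Of all genes 9.66%, 11.7% and 17.5% changed, the last with 9.24% downward, so the count in RBFOX2-KD was near the background share. The median log2 fold change of the transducers was -0.24, -0.08 and -0.52 in RBPMS-KD, RBFOX2-KD and QKI-KD, beside 0.009, 0.015 and 0.007 over all genes. Itpr1, the type 1 inositol trisphosphate receptor of the calcium store, was at 99.8, 103 and 114 CPM in control, fell by 1.02 in RBFOX2-KD and 1.42 in QKI-KD, and had a value of -0.94 in RBPMS-KD. Prkca (protein kinase C alpha) fell by 1.81 in QKI-KD, while its values were -0.04 and 0.38 in RBPMS-KD and RBFOX2-KD. Trpc6, a diacylglycerol-gated cation channel, was at 0.882, 0.765 and 1.03 CPM in control and at 4.01, 3.64 and 4.49 CPM in QKI-KD. It rose by 2.18 in QKI-KD (SE 0.13, edgeR adjusted p = 8.76e-11) but fell by 1.004 in RBFOX2-KD (SE 0.15, edgeR adjusted p = 1.94e-05), at the size limit, and its value in RBPMS-KD was -0.91. Without control library 3 the RBFOX2-KD values of Itpr1 and Trpc6 came under the limit, at -0.97 and -0.89, as did Trpc6 without RBFOX2-KD library 1, at -0.996. They were also under it with library totals (-0.97 and -0.95) and on the quantile-normalised table with a pseudocount of 20 (-0.96 and -0.85). So was Itpr1 on that table with a pseudocount of 1 (-0.96), and Trpc6 with the replicate block (-0.998).

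Of 18 genes that regulate receptors, 14 were tested; 1 rose and 1 fell in RBPMS-KD, 2 fell in RBFOX2-KD, and 3 fell in QKI-KD, beside 9.66%, 11.7% and 17.5% of all genes. Ramp1, a partner that gives Calcrl its affinity for CGRP, was at 4.75, 5.50 and 5.65 CPM in control, 0.978, 1.54 and 1.02 CPM in RBPMS-KD, 2.75, 2.82 and 2.01 CPM in RBFOX2-KD, and 0.592, 0.304 and 0.371 CPM in QKI-KD. It fell in all 3 knockdowns, by 2.15, 1.07 and 3.63 on the log2 scale, the largest edgeR adjusted p being 3.33e-05; without RBFOX2-KD library 3 the RBFOX2-KD value was -0.94, under the size limit. Ramp3 fell by 1.62 in QKI-KD. Agtrap, which encodes a protein that binds the type 1 angiotensin receptor and promotes its internalisation, fell by 1.28 in QKI-KD and had values of -0.90 and -0.39 in RBPMS-KD and RBFOX2-KD. Grk2, a kinase that desensitises these receptors, fell by 1.27 in RBFOX2-KD alone by the edgeR call (SE 0.034, edgeR adjusted p = 5.34e-15), with values of -0.27 and -0.38 in RBPMS-KD and QKI-KD.

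**Figure D4:**
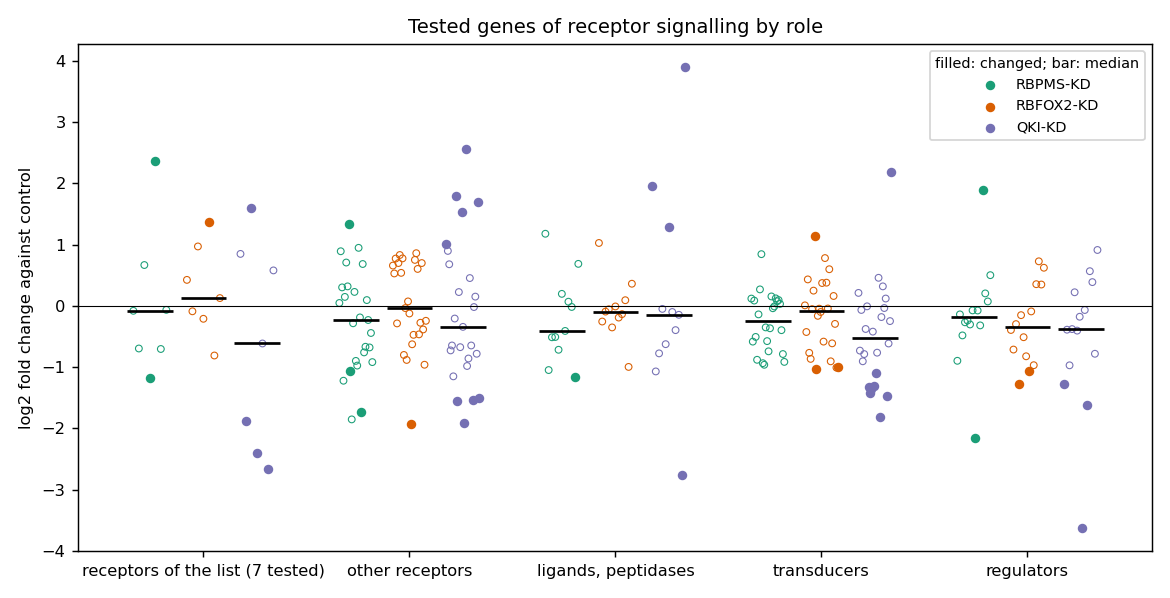
Log2 fold change against control of every tested gene of the receptor list and of the 4 related lists, by role and knockdown; filled points were called changed and bars mark medians. The receptors spread from -2.66 to 2.37, and 7 of the 24 transducers are filled below 0 in QKI-KD.

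For each changed receptor the genes with the most similar pattern over the 12 libraries were sought among 10046 or 10047 genes. The measure was the root mean square difference of centred log2 CPM. The genes searched had at least 5 CPM on average. Symbols with certain prefixes, LOC, RGD and Mir among them, were left out. F2r was matched most closely, by Foxp2 (0.11) and Ccdc141 (0.12), with log2 fold changes in QKI-KD of -2.67 and -2.59. Bdkrb2 was nearest to Zfp280b (0.14) and Slc17a9 (0.17), and Ednra to Pik3ip1 (0.18) and Ptprs (0.20). Ednrb had no near match among the genes searched, its closest being Tmed5 (0.43) and Mfap3l (0.46). Agtr1a, with its wide spread, was nearest to Limch1 (0.44) and Pdgfrl (0.44). Tmed5 was higher in RBPMS-KD and RBFOX2-KD by about the same amount, 1.96 and 1.93, where Ednrb differed between them. These likenesses are descriptions of the same 12 libraries.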

How the data were processed

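Poly(A) RNA of 12 rat PAC1 libraries was sequenced as paired ends. Per the study's methods the authors subsampled reads to a common depth, aligned them with STAR to mRatBN7.2 and counted them per gene with featureCounts. The deposited totals differ between libraries and exceed that depth, so how these counts were made is not fully given; the submitters' processing notes name STAR 2.5.2a, FastQC 0.11.2 and MultiQC 1.8. How strand and multimapping reads were treated is not given in the sources used here. The deposited raw counts were used as they stand; the deposited normalised signal, filtered for noise and quantile-normalised by the authors, served as an alternative only. Groups came from the sample titles.

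Counts were filtered with filterByExpr, scaled by TMM and fitted in edgeR 4.0.16 (R 4.3.3) by the quasi-likelihood test, with all 12 libraries and 1 coefficient per group; p-values were adjusted by Benjamini-Hochberg over 18438 genes. Replicate numbers were not used to pair libraries: 4 of 18 same-numbered pairs correlated above 0.1. Alternatives included DESeq2 1.42.0 and limma 3.58.1. The fit was tested on simulated counts. Named genes outside the 9 receptors were, per list, up to 4 genes that changed, ranked by fold change and averaging 1 CPM or more, and per changed receptor the 2 genes of most similar pattern. The result of 1 such gene is not reported here. The receptors and lists were chosen with earlier results of these data known. Library totals (110595399 to 151665474 counts) limit precision for Agtr1a, Adra1d and Avpr1a; limits cover counting error only.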

Additional observations from a re-analysis of the deposited data

How the results depend on the processing

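Of 666 alternative values of receptor log2 fold changes, 628 kept direction and side of the threshold, 27 lost and 6 gained significance, and 5 reversed. The reversals were Adra1b in RBPMS-KD (0.0069 and 0.0067 on the quantile-normalised table with pseudocounts of 1 and 20), Htr2a in RBPMS-KD (-0.15 to 0.0078 leaving 1 library out, above 0 without RBPMS-KD library 2) and Agtr1a in RBFOX2-KD (-0.45 to 0.39 leaving 1 out, above 0 without control library 3 and, at 0.11, without RBFOX2-KD library 1). Of 1341 values of 28 other named genes, an alternative added after seeing the data, 13 changed side of the threshold without reversing (most of them Edn1 in RBPMS-KD, which lost its adjusted p) and 11 reversed: Prkca (-0.073 to 0.014 leaving 1 out) in RBPMS-KD, Edn1 (0.045 with totals, 0.013 with a mean of at least 200 counts, -0.059 to 0.027 leaving 1 out) and Limch1 (-0.23 to 0.13 leaving 1 out) in RBFOX2-KD, and Tmed5 (0.0055 with totals, 0.037 with the quantile table) in QKI-KD. The number of changed genes, 1781, 2156 and 3231 in RBPMS-KD, RBFOX2-KD and QKI-KD, was 692, 840 and 1484 with a mean of at least 200 counts, 872, 1080 and 1878 on the quantile table with a pseudocount of 20, 10946, 11113 and 12336 by adjusted p alone, and 603, 819 and 1704 in edgeR's test against a log2 fold change of 1. The number of changed receptors, 2, 1 and 4, was 4, 5 and 7 by adjusted p alone; the test against 1 gave 1 in RBPMS-KD and 0 in RBFOX2-KD, where 5 passed the ordinary test. In RBFOX2-KD it was 2 with library totals and 1 to 2 leaving 1 library out. Between RBFOX2-KD and RBPMS-KD it was 2 on the quantile table at either pseudocount, 6 by adjusted p alone, 0 in the test against 1 and 0 to 2 leaving 1 out (0 without RBPMS-KD library 3 or RBFOX2-KD library 1 or 3, where Ednrb came under the size limit). QKI-KD against RBPMS-KD or RBFOX2-KD gave 7 each by adjusted p alone. The cause was not tested, except that fewer genes enter the higher filter. Same-numbered libraries did not deviate together (correlations of -0.35 to 0.25, and 3 of 12 libraries correlated best with their own number); with the number as a replicate block 1752, 2110 and 3203 genes and 2, 1 and 4 receptors changed.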

Other observations

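The transcripts of the G protein alpha subunits Gnaq and Gna11 moved unequally, and they were chosen after their values were seen. Gna12, another listed alpha subunit, had means of 184 CPM in control and 100, 101 and 107 CPM in RBPMS-KD, RBFOX2-KD and QKI-KD. In the same order, Gna13 had means of 23.2, 21.1, 22.4 and 17.9 CPM, and Gna14 of 0.568, 0.694, 0.677 and 0.565 CPM. Gnaq was at 61.7, 61.7 and 66.4 CPM in control, 115, 110 and 116 CPM in RBPMS-KD, 142, 137 and 139 CPM in RBFOX2-KD, and 25.7, 24.2 and 26.04 CPM in QKI-KD. Its groups did not overlap, with RBFOX2-KD highest and QKI-KD lowest. The log2 fold change was 0.85 (SE 0.039) in RBPMS-KD, 1.14 (SE 0.039) in RBFOX2-KD and -1.32 (SE 0.041) in QKI-KD, the largest edgeR adjusted p being 1.05e-11. Gna11, which encodes the closely related G11 subunit, was at 70.1, 71.9 and 71.8 CPM in control and lower in every knockdown, at 53.4, 46.7 and 50.6 CPM in RBPMS-KD, 41.7, 43.9 and 40.2 CPM in RBFOX2-KD, and 36.9, 38.9 and 38.4 CPM in QKI-KD. Its log2 fold changes were -0.51, -0.77 and -0.90, the largest edgeR adjusted p being 5.60e-08, all short of the size limit. In RBPMS-KD and RBFOX2-KD the transcripts of the Gq and G11 subunits thus lay on opposite sides of control, and in QKI-KD both lay below it.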
